A study of Mus musculus with 9 samples.

Results

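The mRNA of 8 genes was followed across 3 transformed mouse cell lines, namely the B7 family ligands Cd274, Pdcd1lg2, Cd80, Cd86, Icosl and Cd276, together with Cd40 and Cd47. They were chosen by name, with earlier results of these data known, out of 50686 genes counted in each library. All lines came from C57BL/6N bone marrow and carried the BCR/ABLp185 oncogene, and they differed in genotype, being wt, Stat5a-/- or Stat5b-/-. Each genotype was represented by 1 line and 3 technical replicates of it, so that 9 libraries were analysed, and every p given here measures the spread between such replicates and compares lines, not independent lines of a genotype. In their descriptions the knockout samples are called wt lines, against their titles and genotype labels.

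As a check of the labels, Stat5a had 48.2, 36.0 and 45.3 normalized CPM (read counts brought to a common total with TMM factors) in the wt libraries, 11.8, 11.9 and 13.6 in the Stat5a-/- libraries and 87.2, 91.7 and 72.2 in the Stat5b-/- libraries. Stat5b had 106.9, 103.3 and 106.3 in wt, 144.8, 124.5 and 155.9 in Stat5a-/- and 72.3, 58.5 and 59.5 in Stat5b-/-. Each was lowest in the line labelled for its loss, although reads remained. The libraries held between 11948136 and 19016396 counted reads, and intervals and limits given here cover no more than counting error or the spread of technical replicates. Counts of replicates varied beyond sampling noise, the chi-square per degree of freedom being between 5.05 and 31.4. B-lineage markers were present in all lines, with 14 of 14 genes at a mean of at least 1 CPM in wt and 12 of 14 in each knockout line, where Rag1 and Rag2, the enzymes of receptor gene recombination, were below 1 CPM. The sum of the 14 lay between 6620 and 7061 CPM in wt, between 7322 and 8208 in Stat5b-/- and between 10729 and 11909 in Stat5a-/-, an order of lines that Icosl and Pdcd1lg2 share, and its part in their values was not tested. Of the 14, Ighm had 1926 CPM in wt, 4504 in Stat5a-/- and 1479 in Stat5b-/-. In Stat5b-/- against wt 8 rose and 4 fell, where 46.2% of all tested genes passed in either direction. In Stat5a-/- against wt 8 rose and 3 fell, where 36.0% passed. Between the knockout lines 4 were higher in Stat5b-/- and 3 lower, where 33.9% passed. T-cell markers were present as well. The sum of 17 T-cell genes lay between 874 and 1187 CPM in wt, between 1553 and 1795 in Stat5a-/- and between 2002 and 2814 in Stat5b-/-, and 17 of the 17 rose in Stat5b-/- against wt, where 24.2% of all tested genes rose, and 9 of the 17 in Stat5a-/-, where 19.8% did. Between the knockout lines 15 of the 17 were higher in Stat5b-/- and 1 lower, where 16.4% and 17.5% of all genes were. Cd2 had 55.1 CPM in wt, 276.2 in Stat5a-/- and 96.3 in Stat5b-/-, an order unlike that of the sum. Granulocyte markers summed to between 0.462 and 1.23 CPM in any library. In such bulk RNA, fewer cells of a type and less RNA per cell cannot be told apart.

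B7 family proteins sit on antigen-presenting and tumour cells and tune the T cells that touch them. CD80 and CD86 stimulate through CD28 or restrain through CTLA4, ICOSL stimulates through ICOS, and CD274 and PDCD1LG2 (PD-L1 and PD-L2) restrain T cells through PDCD1. CD276 is another member, with a role that is still debated. CD40 is a receptor of B cells and other presenting cells that is engaged by CD40LG on helper T cells and leads to NF-kappaB activity, and CD47 signals to phagocytes through SIRPA not to engulf the cell. Interferons raise Cd274 in many cell types, and STAT5A and STAT5B are transcription factors that act downstream of cytokine receptors and of BCR/ABL.

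Promoter sequences are shown for Pdcd1lg2 and Icosl, the members with the largest differences between the lines, and for Cd274, the chromosomal neighbour of Pdcd1lg2. They are the stretches before the gene start, 5′ to 3′ on the strand of the gene, from RefSeq on GRCm38.p6, and capitals mark a match to the NF-kappaB (kappaB) motif on either strand.

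Pdcd1lg2, chr19:29410669-29410918, plus strand: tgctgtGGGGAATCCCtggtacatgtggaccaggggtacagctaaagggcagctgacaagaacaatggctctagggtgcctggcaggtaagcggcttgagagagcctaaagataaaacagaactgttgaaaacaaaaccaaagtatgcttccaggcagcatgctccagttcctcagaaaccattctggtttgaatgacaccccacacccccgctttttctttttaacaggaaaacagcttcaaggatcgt

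Icosl, chr10:78069118-78069301, plus strand: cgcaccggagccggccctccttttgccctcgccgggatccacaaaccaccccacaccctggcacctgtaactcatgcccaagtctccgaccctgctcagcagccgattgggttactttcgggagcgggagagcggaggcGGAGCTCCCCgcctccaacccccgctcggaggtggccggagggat

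Cd274, chr19:29367188-29367437, plus strand: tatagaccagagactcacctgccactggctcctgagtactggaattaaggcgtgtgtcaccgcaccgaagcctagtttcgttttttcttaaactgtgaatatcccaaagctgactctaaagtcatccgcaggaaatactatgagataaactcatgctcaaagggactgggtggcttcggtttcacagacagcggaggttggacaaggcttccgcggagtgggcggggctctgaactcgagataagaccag

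Of the 6 members with a RefSeq promoter entry, one of them Cd276, whose RefSeq start lies inside the gene as counted here, 2 held a kappaB match in the 250 bases before the RefSeq start, Pdcd1lg2 and Icosl, as did 7.25% of 32851 promoters of that length. The GAS motif, to which STAT dimers bind (TTCNNNGAA, the same on both strands), was found in 0 of the 6 and in 7.02% of all promoters. The ISRE core of interferon-stimulated genes (GAAA followed by any 2 bases and GAAA again, searched on both strands) was found in 0 of the 6 and in 2.98% of all promoters. These are matches of letters and say nothing of binding in these cells.

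Of the 8 genes, Cd47 was by far the most abundant per unit of length. In wt it reached 63.0 ± 5.36 CPM per kb of gene model (SD, n = 3), ahead of Cd274 at 4.82 ± 1.00, Cd86 at 0.992 ± 0.336 and Icosl at 0.918 ± 0.236. Pdcd1lg2 at 0.354 ± 0.162 and Cd40 at 0.224 ± 0.0728 followed, and Cd276 and Cd80 were lowest, at 0.0502 ± 0.0336 and 0.0436 ± 0.0138. In this order the libraries of Cd86 and Icosl, of Pdcd1lg2 and Cd40, and of Cd276 and Cd80 overlapped, so those neighbours were not separated. The order differed between the lines. In Stat5a-/-, Icosl at 8.59 ± 0.569 CPM per kb stood above Cd274 at 5.83 ± 0.772, and Pdcd1lg2 at 3.15 ± 0.546 stood above Cd86 at 0.753 ± 0.211, in neither case with overlapping libraries. In Stat5b-/-, Cd274 at 7.87 ± 1.61 was again second to Cd47, ahead of Icosl at 4.22 ± 0.661, and the libraries of Cd86 at 1.68 ± 0.569 and Pdcd1lg2 at 0.885 ± 0.244 overlapped.

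**Figure D1:**
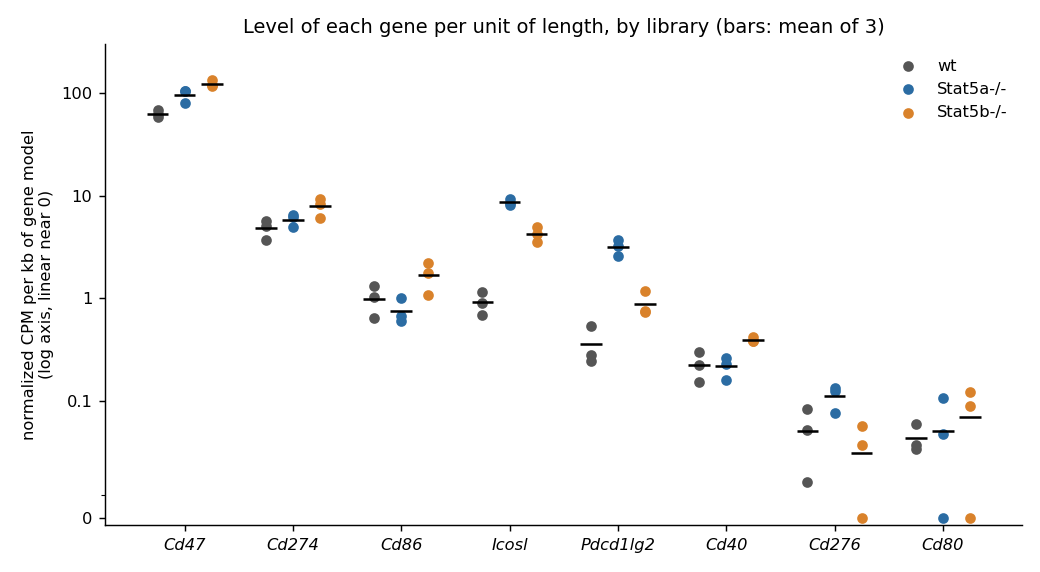
Level of the 8 genes in normalized CPM per kb of gene model (y axis, logarithmic above 0.02 and linear below), with 1 point per library, a bar at the mean of 3 libraries and colours for the wt, Stat5a-/- and Stat5b-/- lines. Cd47 stood highest in every line, Icosl and Pdcd1lg2 changed place between the lines, and Cd80 and Cd276 stayed near 0.

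Of the 8 genes, 6 passed the filter on low counts and were tested. In Stat5b-/- against wt, 5 of the 6 rose at an adjusted p under 0.05 (edgeR quasi-likelihood test, Benjamini-Hochberg over 13852 genes) and 0 fell, where 24.2% of all tested genes rose, 22.0% fell and 46.2% passed in either direction. The 6 had a median log2 fold change of 0.89, against 0.02 over all genes tested. In Stat5a-/- against wt, 3 of the 6 rose and 0 fell, where 19.8% of all genes rose, 16.3% fell and 36.0% passed. The median of the 6 was 0.44, against 0.01 over all genes. Pdcd1lg2 and Icosl also rose by more than 2-fold in each of these comparisons. Past that limit as well were 10.6% of all genes upward, 8.44% downward and 19.1% in either direction in Stat5b-/-, and 7.75%, 6.49% and 14.2% in Stat5a-/-. Both comparisons use the same wt libraries and are not independent. Between the knockout lines, 2 of the 6 were higher in Stat5b-/- and 2 lower, where 16.4% of all genes were higher, 17.5% lower and 33.9% passed, and the median of the 6 was 0.39 against 0.02. By more than 2-fold, 1 of the 6 was higher (Cd86) and 2 were lower (Pdcd1lg2 and Icosl), where 4.81% of all genes were higher, 6.60% lower and 11.4% past the limit in either direction. With the filter on low counts, a gene could be tested through the line in which it was high, so the 6 do not stand for all 8.

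**Figure D2:**
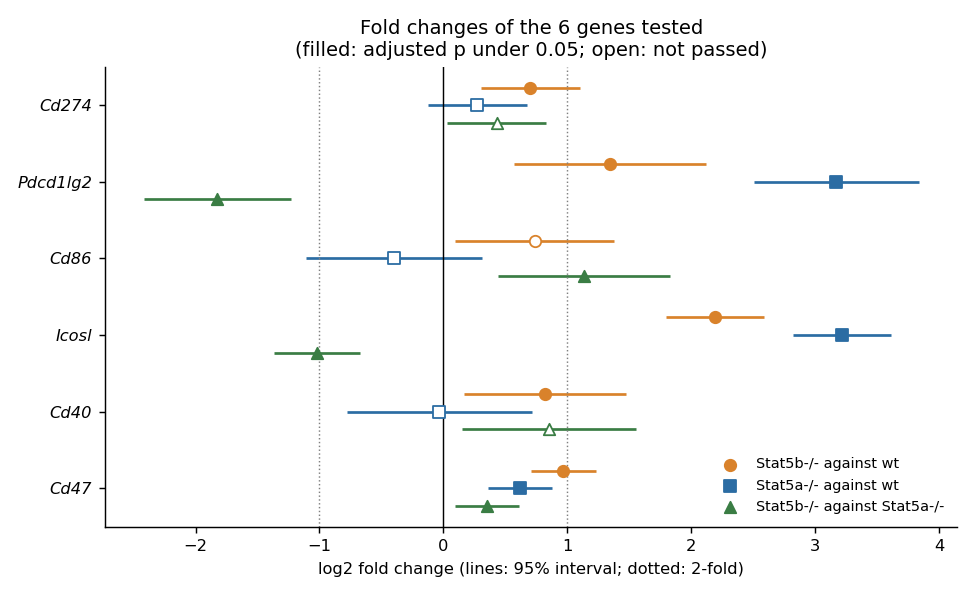
Log2 fold change (x axis) of the 6 tested genes in the 3 comparisons, from the edgeR quasi-likelihood fit on 9 libraries. Points are the estimates and lines their 95% intervals, filled points passed an adjusted p of 0.05, and the dotted lines mark a 2-fold change. Pdcd1lg2 and Icosl lay beyond 2-fold in both knockout lines and were higher in Stat5a-/- than in Stat5b-/-.

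Icosl (ENSMUSG00000000732.9, chromosome 10 from 78069302 to 78083913 of GRCm38), the ligand of ICOS, rose most among the 8 in the Stat5b-/- line. It had 4.19, 5.35 and 3.18 CPM in wt, 37.6, 38.8 and 42.7 in Stat5a-/- and 22.6, 19.5 and 16.5 in Stat5b-/-. The lines did not overlap in any pair, with wt lowest and Stat5a-/- highest. The log2 fold change was 3.22 ± 0.18 (SE) in Stat5a-/- against wt (adjusted p = 1.64e-08, edgeR) and 2.19 ± 0.18 in Stat5b-/- against wt (adjusted p = 5.81e-07, edgeR). Set against each other directly, Stat5b-/- was 2.03-fold lower than Stat5a-/- (adjusted p = 3.04e-04, edgeR).

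Pdcd1lg2 (ENSMUSG00000016498.9, chromosome 19 from 29410919 to 29471157), the less widely expressed of the PDCD1 ligands, showed the same order of lines at a lower level. It had 0.888, 0.455 and 0.404 CPM in wt, 6.01, 4.23 and 5.32 in Stat5a-/- and 1.92, 1.23 and 1.22 in Stat5b-/-. All Stat5a-/- libraries stood above all Stat5b-/- libraries, and these above all wt libraries, which held between 7 and 14 reads of the gene. It rose in Stat5a-/- (log2 fold change 3.17 ± 0.31, adjusted p = 2.88e-06, edgeR) and, 2.54-fold, in Stat5b-/- (1.34 ± 0.36, adjusted p = 0.00795), and was 3.54-fold lower in Stat5b-/- than in Stat5a-/- (adjusted p = 2.18e-04).

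Cd274 (ENSMUSG00000016496.7, chromosome 19 from 29367455 to 29388095), the more widely expressed PDCD1 ligand, did not follow its neighbour. It had 13.5, 20.6 and 18.4 CPM in wt, 22.2, 23.2 and 17.9 in Stat5a-/- and 30.2, 22.0 and 33.3 in Stat5b-/-. The Stat5b-/- libraries lay above the wt libraries, while the Stat5a-/- libraries overlapped those of both other lines. Cd274 rose 1.63-fold in Stat5b-/- (log2 fold change 0.70 ± 0.18, adjusted p = 0.00687, edgeR). With the sum of T-cell markers as a covariate, a fit added after the data were seen, this value was -0.87 (adjusted p = 0.113, edgeR). In Stat5a-/- against wt the log2 fold change was 0.27, with a 95% interval from -0.13 to 0.67 (adjusted p = 0.28), and in Stat5b-/- against Stat5a-/- it was 0.43 (adjusted p = 0.0899). The latter value passed in 2 of 19 alternatives, without Stat5b-/- replicate 2 (adjusted p = 0.0302, edgeR) and with no filter on low counts (0.0272). It was 0.31 (adjusted p = 0.25) without Stat5b-/- replicate 3, 0.34 (0.21) without Stat5a-/- replicate 3 and -0.28 (0.32) under the T-cell covariate.

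**Figure D3:**
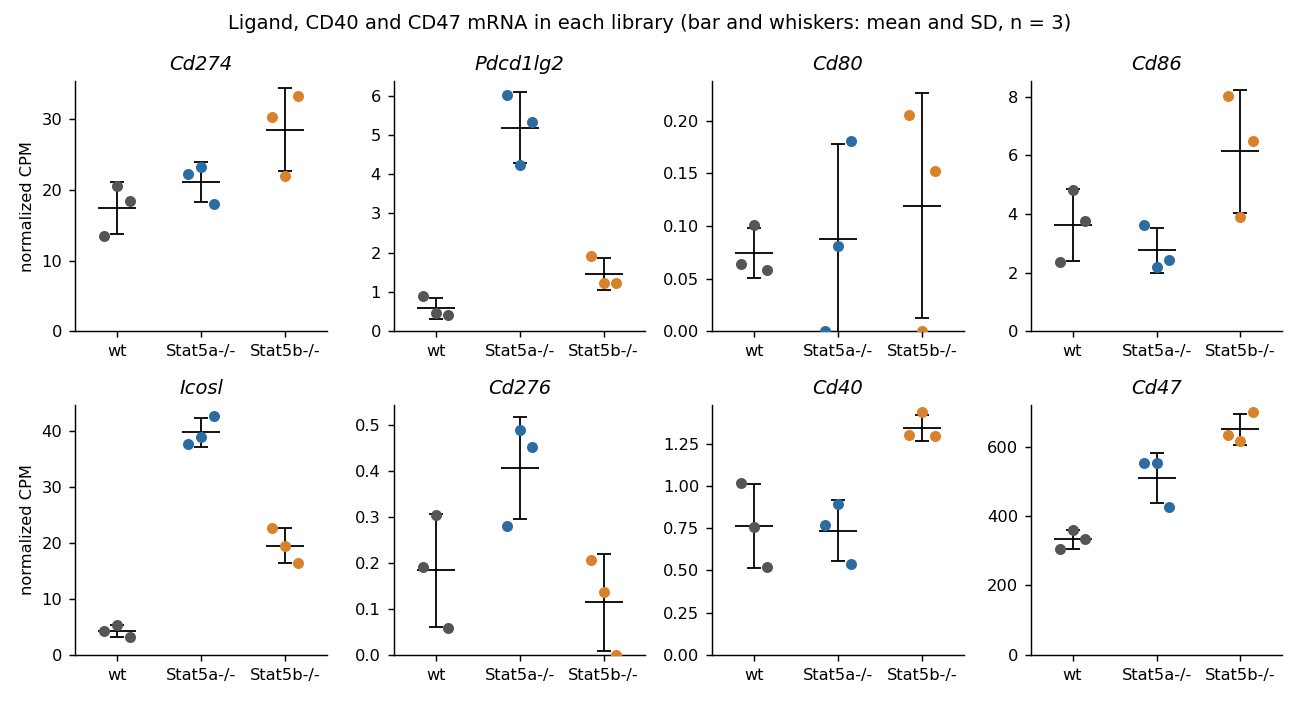
Normalized CPM (y axis, from 0, a scale of its own in each panel) of the 8 genes in each library of the wt, Stat5a-/- and Stat5b-/- lines. Points are libraries in the order of replicates 1 to 3, and bars and whiskers are the mean and SD of 3, cut at 0. Icosl, Pdcd1lg2 and Cd47 separated the wt line from both knockout lines, and Cd80 and Cd276 rested on a few reads.

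Of the ligands of CD28 and CTLA4, Cd86 (ENSMUSG00000022901.13, chromosome 16 from 36603869 to 36666081) was expressed at a low level. It had 2.35, 4.80 and 3.75 CPM in wt, 3.64, 2.20 and 2.43 in Stat5a-/- and 8.02, 3.90 and 6.48 in Stat5b-/-. The Stat5b-/- libraries stood above all Stat5a-/- libraries, but replicate 2 of Stat5b-/- lay within the wt range. Between the knockout lines, Cd86 was 2.19-fold higher in Stat5b-/- (log2 fold change 1.13 ± 0.32, adjusted p = 0.0155, edgeR), a call that was lost without Stat5a-/- replicate 2 (adjusted p = 0.0663) or Stat5b-/- replicate 1 (0.0706). With the summed level of T-cell markers as a covariate, a fit added after the data were seen, the log2 difference was -0.027 (adjusted p = 0.976, edgeR). Against wt Cd86 did not pass, with a log2 fold change of 0.74 in Stat5b-/- (95% interval 0.10 to 1.38, adjusted p = 0.0581, edgeR) and of -0.40 in Stat5a-/- (95% interval -1.11 to 0.31). The value in Stat5b-/- passed in 4 of 19 alternatives, without wt replicate 2 (adjusted p = 0.0272), without Stat5b-/- replicate 2 (0.0159), with the GC offset (0.0273) and with no filter on low counts (0.00393). It was 0.46 (adjusted p = 0.27) without Stat5b-/- replicate 1, 0.51 (0.185) without wt replicate 1 and -1.76 (0.0989) under the T-cell covariate. CD86 is typical of macrophages and dendritic cells, and markers of these cells were summed beside it. Of 12 macrophage and monocyte genes, 4 reached a mean of 1 CPM in wt, 5 in Stat5a-/- and 6 in Stat5b-/-, with sums of 191.5 to 242.6, 276.2 to 305.9 and 364.9 to 457.8 CPM, and Cd14 was at 0 in Stat5b-/-. Most of each sum was Ly6c2, with 179.8 CPM in wt, 267.8 in Stat5a-/- and 387.2 in Stat5b-/-, while Mrc1 was lower in the knockout lines (21.4, 2.58 and 7.47 CPM) and the mean of Itgam and Adgre1 stayed below 1 CPM in every line. Of the 7 of these genes that were tested, 5 rose and 1 fell in Stat5b-/- against wt, and 2 rose and 2 fell in Stat5a-/-, where 46.2% and 36.0% of all tested genes passed in either direction. Of 10 dendritic cell genes, 4, 5 and 6 did so, with sums of 68.5 to 72.2, 107.7 to 111.7 and 81.7 to 110.9 CPM, most of it from Ccr7 and Bst2, which B cells also express. Of the 7 tested, 5 rose and 2 fell in Stat5b-/-, and 1 rose and 1 fell in Stat5a-/-, the latter near the share of all genes. The part of such cells in the values of Cd86 was not tested.

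Cd80 (ENSMUSG00000075122.4, chromosome 16 from 38458933 to 38486933) had between 0 and 3 reads in a library, and Cd276 (ENSMUSG00000035914.11, chromosome 9 from 58524298 to 58555437) between 0 and 6, so neither passed the filter on low counts. A count of 0 allows 3 counts, or between 0.152 and 0.270 CPM per library here. Summed over the 3 libraries of a line, Cd80 had 4 reads in wt, 3 in Stat5a-/- and 5 in Stat5b-/-, and Cd276 had 10, 15 and 5. The Cd276 libraries of Stat5b-/- (0 to 0.206 CPM) and Stat5a-/- (0.280 to 0.488 CPM) did not overlap, while those of the other pairs of lines did, as did all pairs for Cd80. In the edgeR fit without the filter, neither gene passed in any of the 3 comparisons, with adjusted p between 0.152 and 1, the lowest being that of Cd276 in Stat5b-/- against Stat5a-/- (log2 fold change -1.70).

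Cd40 (ENSMUSG00000017652.16, chromosome 2 from 165055627 to 165072948) was close to the limit of detection. It had 1.02, 0.758 and 0.520 CPM in wt, 0.769, 0.895 and 0.541 in Stat5a-/- and 1.30, 1.44 and 1.30 in Stat5b-/-, on between 6 and 21 reads. The Stat5b-/- libraries stood above all others, and wt and Stat5a-/- overlapped. Cd40 rose 1.77-fold in Stat5b-/- against wt (log2 fold change 0.82 ± 0.30, adjusted p = 0.0413, edgeR), but the call was lost in 13 of 19 alternatives. Among them were DESeq2 (adjusted p = 0.117) and the omission of any one library other than wt replicate 1 (adjusted p between 0.0513 and 0.167). In Stat5a-/- against wt the log2 fold change was -0.03 (95% interval -0.78 to 0.72), and it turned positive without wt replicate 1 (0.20) or Stat5a-/- replicate 3 (0.10). Between the knockout lines it was 0.85 (95% interval 0.15 to 1.56, adjusted p = 0.0596).

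Cd47 (ENSMUSG00000055447.18, chromosome 16 from 49855618 to 49915010) was measured on between 4720 and 9224 reads in a library, the best count of the 8. It had 304.4, 360.9 and 332.4 CPM in wt, 551.6, 551.5 and 425.6 in Stat5a-/- and 632.5, 617 and 700.6 in Stat5b-/-. No pair of lines overlapped, with wt lowest and Stat5b-/- highest. Cd47 rose 1.95-fold in Stat5b-/- (log2 fold change 0.97 ± 0.12, adjusted p = 2.54e-05, edgeR) and 1.53-fold in Stat5a-/- (0.62 ± 0.12, adjusted p = 0.00123). Of the knockout lines, Stat5b-/- had the 1.28-fold higher level (0.35 ± 0.12, adjusted p = 0.0375). This last call was lost in 9 of 19 alternatives, among them without wt replicate 3 (adjusted p = 0.0614), without Stat5a-/- replicate 3 (0.120) and without Stat5b-/- replicate 1 (0.0527), 2 (0.0545) or 3 (0.10), when chromosomes 17, 18 and 19 were left out of the scaling (0.0640), with the 2 knockout lines alone in the fit (0.0620) and with the sum of T-cell markers as a covariate (0.768). Each call against wt was lost in 1 of 19 alternatives, that covariate, with 0.39 in Stat5b-/- (adjusted p = 0.482, edgeR) and 0.29 in Stat5a-/- (0.322).

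The levels of these genes were also set beside the T-cell transcripts in the libraries. The T-cell sum was 874, 1187 and 1095 CPM in wt replicates 1 to 3, 1720, 1795 and 1553 in Stat5a-/- and 2814, 2002 and 2676 in Stat5b-/-, so the lines did not overlap in it. Within the wt and the Stat5b-/- line, Cd86 ranked the libraries exactly as this sum did, and Cd274 did so within the wt and the Stat5a-/- line. Cd47 did so within the wt, Cd40 within the Stat5a-/- and Cd80 within the Stat5b-/- line, and 3 libraries have 6 possible orders. Icosl, Pdcd1lg2 and Cd276 did so within 0 of the 3 lines. How many of all tested genes share these orders was not counted. The deviation of a library from the mean of its line also had a correlation with the GC content of genes. This correlation was 0.467, -0.482 and -0.0581 in wt replicates 1 to 3, and -0.346, -0.311 and 0.525 in Stat5a-/-. In Stat5b-/- it was 0.319, 0.158 and -0.449. The part of GC content in these orders was not tested. With the log2 T-cell sum added to the fit as a covariate, a fit chosen after the data were seen, Icosl was still higher than in wt in Stat5a-/- (log2 fold change 3.13, adjusted p = 6.26e-05, edgeR) and in Stat5b-/- (2.03, adjusted p = 0.0343). Pdcd1lg2 was still higher in Stat5a-/- (3.36, adjusted p = 0.00339), and in Stat5b-/- its value was 1.68 without passing (adjusted p = 0.353). The other calls against wt were lost. For Stat5b-/- against wt the value of Cd274 became -0.87 (adjusted p = 0.113), that of Cd86 -1.76 (0.0989), that of Cd40 1.41 (0.358) and that of Cd47 0.39 (0.482), and Cd47 in Stat5a-/- became 0.29 (0.322). Cd86 in Stat5a-/- against wt passed in this fit, with -1.74 (adjusted p = 0.00755). Since the T-cell sums of the lines do not overlap, the slope rests on the spread within lines and is carried beyond it. That fit had no GC offset. GC content lay between 42.2 and 44.9% for Cd47, Cd80, Cd86 and Cd274 and between 48.8 and 56.2% for the other members. Its part in the values under the covariate was not tested. With the GC offset and no covariate, Cd274 (log2 fold change 0.69, adjusted p = 6.37e-04, edgeR) and Cd47 (0.95, 4.78e-08) passed in Stat5b-/- against wt.

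The shares of all tested genes that passed in either direction, 46.2% in Stat5b-/- against wt, 36.0% in Stat5a-/- against wt and 33.9% between the knockout lines, are the measure for the counts of the lists that follow. Among 14 other checkpoint ligands, 10 were tested. Of these 4 rose and 3 fell in Stat5b-/- against wt, with a median log2 fold change of 0.30, and in Stat5a-/- 3 rose and 3 fell, with a median of 0.31. Nectin2, a ligand of TIGIT and CD226, fell in both, from 2.5 CPM in wt to 0.0301 in Stat5a-/- and 0.0482 in Stat5b-/-, where 1 and 2 reads were left over 3 libraries against 131 in wt. Pvr, which binds the same receptors, had 21.7 CPM in wt, 15.1 in Stat5a-/- and 6.95 in Stat5b-/-, and fell by 1.64 on the log2 scale in Stat5b-/- (adjusted p = 5.32e-07, edgeR). Tnfrsf14, the ligand of BTLA, rose in Stat5b-/- (log2 fold change 1.52, adjusted p = 4.86e-05) and in Stat5a-/- (1.17, adjusted p = 6.55e-04). Cd200 rose in Stat5b-/- (1.12, adjusted p = 0.0135). Between the knockout lines 3 of the 10 were higher in Stat5b-/- and 1 lower, Pvr, by 1.12 on the log2 scale.

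Of 16 receptors of these ligands, 10 were tested, most of them genes of T cells or natural killer cells. In Stat5b-/- against wt 8 rose and 1 fell, with a median of 1.05, in Stat5a-/- against wt 3 rose and 1 fell, with a median of 0.45, and in Stat5b-/- against Stat5a-/- 6 were higher and 0 lower. The T-cell sum was higher in the same lines, as was the sum of 7 natural killer cell genes in Stat5b-/- (74.9 to 108.6 CPM in wt, 99.1 to 125.2 in Stat5a-/- and 137 to 220.8 in Stat5b-/-). Most of the latter sum was Nkg7 and Klrk1, which T cells also express, while Klrb1c, the NK1.1 antigen, was lower in the knockout lines (4.43 CPM in Stat5a-/- and 1.63 in Stat5b-/-, from 10.3 in wt). Prf1, the pore-forming perforin, had 4.25, 6.00 and 8.95 CPM in wt, Stat5a-/- and Stat5b-/- in turn, and Eomes, a transcription factor of these cells, 6.18 CPM in wt and 13.4 in Stat5b-/-. Of the 5 natural killer cell genes that were tested, 4 rose and 1 fell in Stat5b-/- against wt and 1 rose and 1 fell in Stat5a-/-, where 46.2% and 36.0% of all genes passed, and between the knockout lines 4 were higher in Stat5b-/- and 1 lower, where 33.9% of all genes passed. Whether such transcripts had a part in these counts was not tested. Icos, the receptor of ICOSL, rose in Stat5b-/- against wt (log2 fold change 1.15, adjusted p = 0.00104, edgeR), and Cd28 was not called there (0.55, adjusted p = 0.0609). Ctla4 rose in Stat5a-/- (1.56, adjusted p = 0.00585) and Stat5b-/- (1.03, adjusted p = 0.0484), on at most 26 reads. Pdcd1 and Cd40lg each had between 0 and 5 reads and were not tested. Siglecg, a B-cell receptor of CD24, rose in both knockout lines (1.95 in Stat5b-/- and 1.33 in Stat5a-/-), and Cd226 and Lag3 rose in Stat5b-/- (1.26 and 1.19). Lag3 had between 6 and 15 reads in a library. Sirpa, the receptor of CD47, went the other way from its ligand. It had 9.30 CPM in wt, 0.494 in Stat5a-/- and 1.25 in Stat5b-/-, and its log2 fold change was -4.25 and -2.88 (adjusted p = 1.46e-07 and 8.45e-07).

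**Figure D4:**
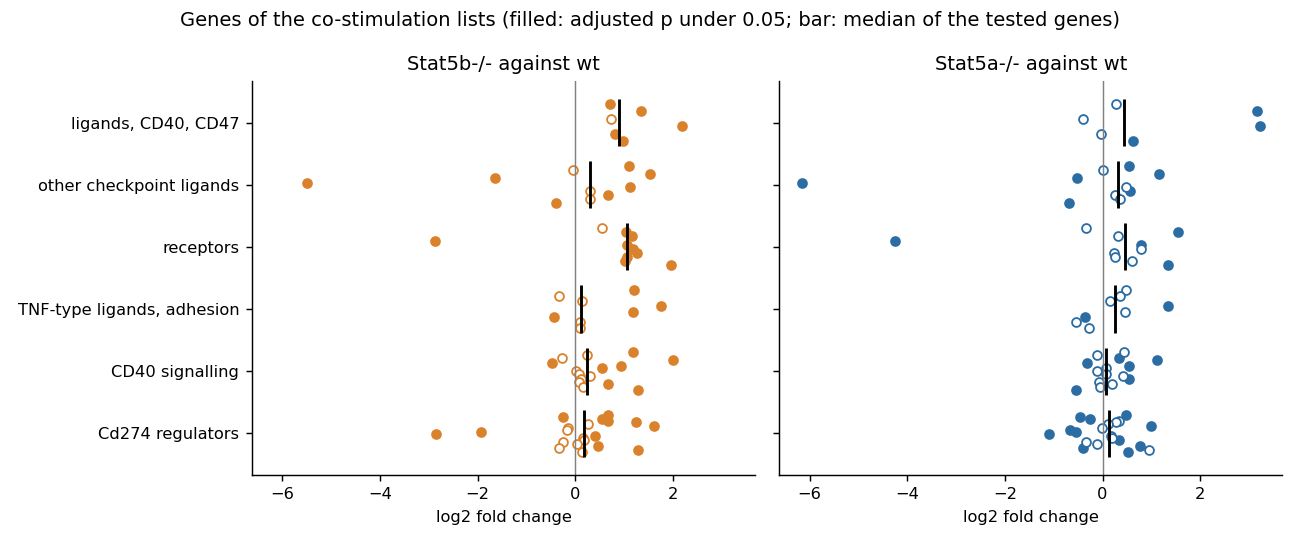
Log2 fold change (x axis) of the tested genes of 6 lists in Stat5b-/- against wt (left) and Stat5a-/- against wt (right), with 1 point per gene, filled where the adjusted p was under 0.05, and a bar at the median. The bar of the receptors lay at 1.05 in Stat5b-/- and 0.45 in Stat5a-/-, and the points furthest to the left are Nectin2 and Sirpa.

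Of 14 TNF family and adhesion ligands that act beside the B7 proteins, 8 were tested. There 3 rose and 1 fell in Stat5b-/- against wt, with a median of 0.12, and in Stat5a-/- 1 rose and 1 fell, with a median of 0.25. Icam2, an adhesion ligand of leukocyte integrins, rose in Stat5b-/- (log2 fold change 1.74, adjusted p = 2.58e-08, edgeR) and Stat5a-/- (1.34, adjusted p = 3.87e-07). Tnfsf8, the ligand of CD30, and Cd83, an activation marker of B cells and dendritic cells, rose in Stat5b-/- (1.21 and 1.18). Between the knockout lines, 3 of the 8 were higher in Stat5b-/- and 1 lower, none of them by 2-fold.

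The 15 genes of the CD40 signalling chain were all tested. Of them 6 rose and 1 fell in Stat5b-/- against wt, with a median of 0.24, in Stat5a-/- 4 rose and 2 fell, with a median of 0.08, and between the knockout lines 5 were higher and 2 lower in Stat5b-/-. These counts, 7 of 15 and 6 of 15 against wt, were near the shares of all genes (46.2% and 36.0%). Traf5, an adaptor of TNF family receptors, had 3.57 CPM in wt, 7.74 in Stat5a-/- and 14.2 in Stat5b-/-, and rose in both (log2 fold change 1.11 and 1.99). Traf1, another adaptor, rose in Stat5b-/- (1.18, adjusted p = 5.05e-05, edgeR). Tnfaip3, an inhibitor and target of NF-kappaB, moved in opposite directions, with 13.7 CPM in wt, 9.38 in Stat5a-/- and 33.3 in Stat5b-/-. It rose by 1.28 in Stat5b-/- (adjusted p = 3.40e-06) and fell by 0.54 in Stat5a-/- (adjusted p = 0.00694), on the log2 scale.

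Of 20 genes known to act on Cd274 mRNA or protein, all tested, 8 rose and 3 fell in Stat5b-/- against wt, with a median of 0.17, and 5 rose and 6 fell in Stat5a-/-, with a median of 0.13, where 46.2% and 36.0% of all tested genes passed. Irf1, the transcription factor through which interferon-gamma induces Cd274, had 21.6 CPM in wt, 42.9 in Stat5a-/- and 66.1 in Stat5b-/-, and rose in both (log2 fold change 0.99 and 1.61). Ciita, the activator of MHC class II genes, rose in Stat5b-/- (1.29, adjusted p = 0.0181, edgeR), on between 5 and 22 reads in a library. Cmtm4, whose product protects CD274 from degradation, and the oncogene Myc fell in Stat5b-/-, with log2 fold changes of -2.86 and -1.94 (adjusted p = 4.63e-06 and 5.29e-08). In Stat5a-/-, Cmtm4 fell by 1.10 and Myc by 0.55. Cmtm6, also of this list and named here after its value was seen, rose in Stat5b-/- against wt (0.40, adjusted p = 0.00797, edgeR). It had 49.2 CPM in wt and 65.2 in Stat5b-/-. Between the knockout lines, 4 of the 20 were higher and 3 lower in Stat5b-/-, Cmtm4 by 1.77 and Myc by 1.38 among the latter.

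Cd274 and Pdcd1lg2 lie on the same strand of chromosome 19, 22.8 kb apart. In Stat5a-/- against wt the 470 other tested genes of this chromosome had a median log2 fold change of 0.41, where Cd274 had 0.27 and Pdcd1lg2 3.17, and in Stat5b-/- against wt their median was 0.03. A shift of the whole chromosome in the Stat5a-/- line and a change of single genes on it cannot be told apart for values of that size. Around Pdcd1lg2, 16 other tested genes had their nearest edge within 500 kb of it, with a median of 0.28 in Stat5a-/- and 0.13 in Stat5b-/-. The nearest, A930007I19Rik, at 15.2 kb, had 0.09 and -0.01. On the other side Plgrkt, which ends close to the start of Cd274, had 0.60 in Stat5a-/- and 0.40 in Stat5b-/-. Around Icosl, the nearest tested genes were Pfkl on one side, with -0.24 in Stat5a-/- and -0.63 in Stat5b-/-, and D10Jhu81e on the other, with 0.15 and 0.41. The 15 tested genes with their nearest edge within 500 kb of Icosl had a median of 0.15 in Stat5a-/- and 0.05 in Stat5b-/-.

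**Figure D5:**
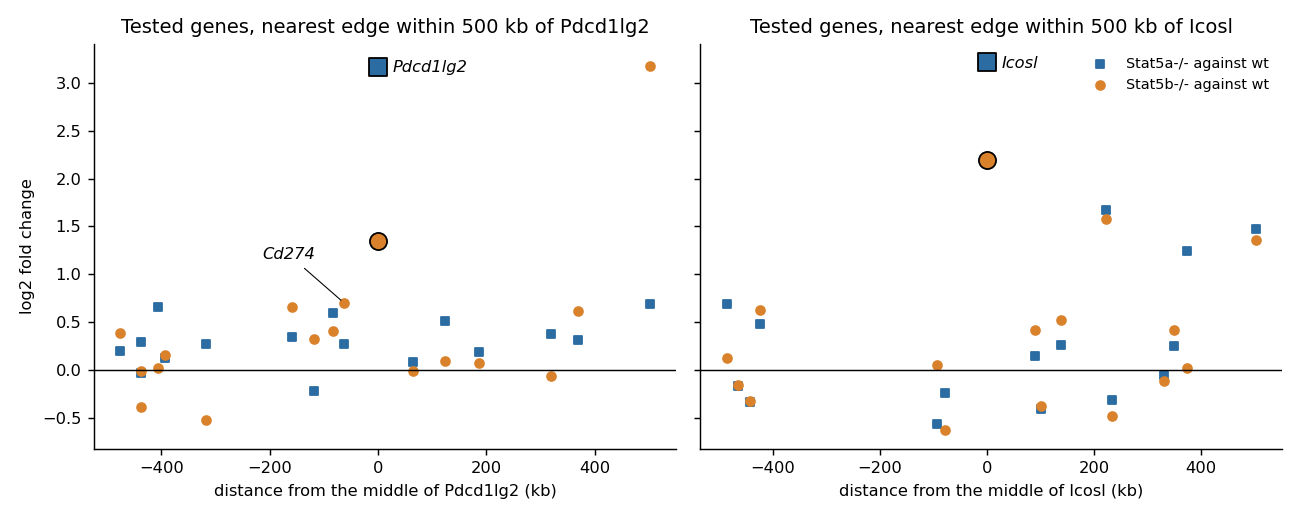
Log2 fold change (y axis) of tested genes whose nearest edge lay within 500 kb of Pdcd1lg2 (left) or Icosl (right) against the distance between gene middles in kb (x axis), in Stat5a-/- against wt (squares) and Stat5b-/- against wt (circles), with large outlined symbols for the genes themselves. Pdcd1lg2 and Icosl stood above their neighbours in Stat5a-/-, and Il33, named here after its value was seen, reached 3.18 in Stat5b-/- at the right edge of the left panel.

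Over the 9 libraries, log2 levels of Pdcd1lg2 and Icosl had a Pearson correlation of 0.92, those of Cd274 and Cd47 of 0.87, and those of the neighbours Cd274 and Pdcd1lg2 of 0.16. These are descriptions of 9 points that fall into 3 lines and share depth and T-cell transcripts within a library. Among all tested genes, those most like Icosl were Fcrla, an Fc receptor-like gene of B cells, Pmepa1 and Hgfac, each at 0.99. Fcrla had 2.35 CPM in wt, 20.4 in Stat5a-/- and 9.66 in Stat5b-/-. Those most like Pdcd1lg2 were Actr1a and Cuedc2, also on chromosome 19, and Lrrc27, at between 0.98 and 0.99. Those most like Cd47 were B2m, the light chain of MHC class I, Ifi47, an interferon-inducible GTPase, and Akr1c12, each at 0.99. B2m had 1736 CPM in wt, 2994 in Stat5a-/- and 3906 in Stat5b-/-. Cd274 was most like Crebrf, Filip1l and Phf11c, at 0.99, Cd86 most like Bambi-ps1, Emb and Inpp4b, at between 0.96 and 0.99, and Cd40 most like Zfp235, Src and Ankrd6, at between 0.93 and 0.97.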

How the data were processed

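The 9 RNA-seq libraries were technical replicates, 3 from a single BCR/ABLp185+ line of each genotype. The authors trimmed reads with Trimmomatic, mapped them to GRCm38 (GENCODE M13) with STAR, counted them on union gene models with featureCounts 1.5.1 and deposited raw counts without normalization. The counting command in the file headers sets no strand option, so reads of overlapping genes on opposite strands were not separated. Of 50686 gene identifiers, 50376 matched a symbol of a GENCODE M21 table. Samples were grouped by titles and genotype labels.

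Counts were tested with edgeR 4.0.16 in R 4.3.3 (TMM, filterByExpr, glmQLFit and glmQLFTest on all 9 libraries, 13852 genes, Benjamini-Hochberg adjustment). The limits were an adjusted p of 0.05 and, where stated, a log2 fold change of 1. An SE was derived from the log2 fold change and its F statistic. The steps were tested on simulated counts. Alternatives were DESeq2 1.42.0, RLE scaling, other filters, a GC offset (loess, span 0.5), scaling without chromosomes 17, 18 and 19, 2 genotypes alone, a replicate block and each library left out. The GC offset with the block and the T-cell covariate were added after the data were seen. The 8 genes, the lists and the markers were chosen with earlier results of these data known. All 8 genes were named, and from each list at most 4 genes per comparison, those past both limits with the largest change, together with direct receptors and Cmtm6. For each tested gene the 3 most correlated genes were named, and the nearest tested gene on each side of the loci described. Motifs were searched in 250 bases before RefSeq gene starts.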

Additional observations from a re-analysis of the deposited data

How the results depend on the processing

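Of 342 values of the 6 tested genes under 19 alternatives, 299 kept their direction and their side of an adjusted p of 0.05, 27 no longer passed, 7 newly passed and 9 changed sign. Icosl kept its call in all 3 comparisons and Pdcd1lg2 in Stat5a-/- against wt and between the knockout lines, under all 19. The sign changes were mostly under the T-cell covariate. There Cd274 became -0.87 in Stat5b-/- against wt, -0.59 in Stat5a-/- against wt and -0.28 between the knockout lines, Cd86 became -1.76 in Stat5b-/- against wt and -0.027 between the knockout lines, and Cd40 in Stat5a-/- against wt became 0.30. The same value of Cd40 was 0.017 with chromosomes 17, 18 and 19 left out of the scaling and lay between -0.24 and 0.20 with 1 library left out, being 0.20 without wt replicate 1 and 0.10 without Stat5a-/- replicate 3.

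Of the 6 tested genes, 5 passed an adjusted p of 0.05 in Stat5b-/- against wt (46.2% of all tested genes did), and 1 under the T-cell covariate, and 4 did between the knockout lines (33.9% of all tested genes), and 2 under that covariate. With the GC offset, 6 passed in Stat5b-/- against wt. With 1 library left out, between 4 and 5 of the 6 passed in Stat5b-/- against wt, 3 in every case in Stat5a-/- against wt, and between 2 and 4 between the knockout lines, the 2 being without Stat5b-/- replicate 1. Over all genes, 2640 were past the stricter pair of limits, an adjusted p of 0.05 and a 2-fold change, in Stat5b-/- against wt, 1312 under the T-cell covariate and between 2502 and 2806 with 1 library left out. In Stat5a-/- against wt the range was 1953 to 2066 around 1973, and between the knockout lines 1504 to 1743 around 1580. Without Stat5b-/- replicate 1, 1237 genes were higher and 1265 lower in Stat5b-/- against wt, where the full set gave 1471 and 1169. Levels moved by less than 1 SD under both other scalings.

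The replicate numbers in the titles did not pair the libraries. Deviations of libraries with the same number correlated at -0.09 on average over 9 pairs, while the mean over the 18 pairs of unlike number was 0.04, and 1 of the 9 libraries correlated best with its own number. With the number as a block, 2595, 1941 and 1519 genes were past both limits in Stat5b-/- against wt, Stat5a-/- against wt and between the knockout lines, and 4, 3 and 3 of the 6 tested genes passed an adjusted p of 0.05, where 41.5%, 31.1% and 28.1% of all genes did. The calls lost under the block were Cd40 in Stat5b-/- against wt (adjusted p = 0.0574, edgeR) and Cd47 between the knockout lines (0.0734). Cd40 and Pdcd1lg2, with at most 16 reads in a wt library, were imprecise at this depth.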
